A study of Mus musculus with 14 samples.

Results

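The 40 endothelial and angiogenic genes described here were chosen by their symbols in the platform annotation, out of 18193 genes that had a probe set of their own on the arrays. Every one of the 40 had at least 1 such probe set: 17 had 1 and 23 had more, 77 in all, and a gene with several was read from its brightest on average. By their known roles they fell into 13 pan-endothelial genes, 3 VEGF receptors, 5 endothelial transcription factors, 5 capillary genes, 3 arterial genes, 5 lymphatic genes and 6 growth factors.

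Total RNA from pooled whole lungs of ICR mice had been hybridised to 14 Affymetrix mouse genome arrays, 2 at each of 7 time points: E12, E14, E16 and E18 (embryonic days, with the day of the plug as day 0), P2 and P10 (days after birth) and Adult (postnatal day 30). The labels give the strain as ICR and the gender as female throughout, and no group was treated or carried an engineered allele. How many lungs a pool held, and whether both arrays of a time point came from separate pools, is not given in the sources used here, so each p-value rests on a spread between arrays that may be technical. In RNA of whole lung, fewer cells of a type and less RNA per cell cannot be told apart.

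Endothelial cells line blood and lymphatic vessels, and in the lung they build the dense capillary bed that lies against the alveolar epithelium and carries out gas exchange. They grow in response to vascular endothelial growth factors (VEGFs), which bind the tyrosine kinase receptors encoded by Kdr, Flt1 and Flt4 with the neuropilins as co-receptors, and vessels mature under angiopoietins, which bind the receptor encoded by Tek. Transcription factors of the ETS and SOX families set up the endothelial programme, and arterial, capillary and lymphatic endothelium each add genes of their own.

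ETS factors bind DNA at a GGAA core. Matches to 2 longer motifs that hold this core, CAGGAA and CCGGAA, are shown here for 4 members whose values the results below turn on. The windows are the 250 bases before the RefSeq start (build GRCm38.p6). Both strands were searched, and capitals mark a match, which also reads as TTCCTG or TTCCGG. Other GGAA letters in the windows were not counted and stay in lower case. All 4 were among the 14 member genes with a match to either motif.
Kdr, chr5:75978456-75978705, minus strand: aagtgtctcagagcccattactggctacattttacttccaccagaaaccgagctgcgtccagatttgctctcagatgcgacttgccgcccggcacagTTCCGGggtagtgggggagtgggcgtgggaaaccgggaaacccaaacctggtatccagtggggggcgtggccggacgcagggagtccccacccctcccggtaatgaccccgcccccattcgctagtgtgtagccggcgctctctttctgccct
Tek, chr4:94739039-94739288, plus strand: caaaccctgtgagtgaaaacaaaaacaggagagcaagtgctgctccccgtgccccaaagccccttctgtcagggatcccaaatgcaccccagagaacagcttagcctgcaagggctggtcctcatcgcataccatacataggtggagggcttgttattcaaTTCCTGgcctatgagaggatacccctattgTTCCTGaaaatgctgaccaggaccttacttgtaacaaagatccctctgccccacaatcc
Tie1, chr4:118489850-118490099, minus strand: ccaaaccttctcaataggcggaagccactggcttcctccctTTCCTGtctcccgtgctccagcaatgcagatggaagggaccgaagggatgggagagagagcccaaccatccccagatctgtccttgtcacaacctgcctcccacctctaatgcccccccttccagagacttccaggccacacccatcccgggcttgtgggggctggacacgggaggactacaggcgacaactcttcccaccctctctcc
Car4, chr11:84957504-84957753, plus strand: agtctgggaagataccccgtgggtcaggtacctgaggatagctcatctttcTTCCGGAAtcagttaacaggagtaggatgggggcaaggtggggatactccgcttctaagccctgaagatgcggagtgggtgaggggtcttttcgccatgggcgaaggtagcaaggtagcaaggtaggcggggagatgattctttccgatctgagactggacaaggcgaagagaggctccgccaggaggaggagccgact
Tie1 and Kdr each held 1 match, 209 and 153 bases before the start. Tek held 2, at 89 and 59 bases, and Car4 held 1 run, TTCCGGAA, that reads as CCGGAA on both strands and begins 199 bases before the start. The window of Kdr lies within the annotated gene and that of Tek overlaps the beginning of its gene, since each start is that of 1 transcript. Of the 40 members, 22 had an entry in the promoter table, with 28 windows. CAGGAA stood in 13 of the 28 windows (46.4%), against 25.7% of all 32851 windows of this length, and CCGGAA in 2 (7.14%), against 12.0%. Of the SOX motifs, which overlap neither, ACAAAG stood in 6 windows (21.4% against 16.5% of all) and ACAATG in 2 (7.14% against 10.7%). Further motifs searched were the RBPJ motif TGGGAA, which shares its last 4 letters with the ETS motifs, in 9 windows (32.1% against 21.6%), the KLF motif GGGTGTG in 3 (10.7% against 6.93%), the NKX motif CAAGTG in 4 (14.3% against 11.6%), the GATA motif AGATAA in 2 (7.14% against 9.99%) and the hypoxia response motif ACGTG in 2 (7.14% against 16.6%). These are matches of letters in a window and no measurement of binding.

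Egfl7, a secreted endothelial protein and one of the pan-endothelial members, carries the endothelial microRNA miR-126 within its gene, and the mature strand is shown because it is made from the same locus, with its seed, bases 2 to 8, in capitals.
mmu-miR-126a-3p, chr2:26591402-26591423, plus strand (RefSeq, GRCm38.p6): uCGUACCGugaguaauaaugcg
The arrays measured the Egfl7 mRNA and not the microRNA.

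Values are log2 signals of a probe set as deposited, so a difference of 1 is a doubling, and the level of one gene says nothing about its amount relative to another. The deposited values ran from 2.53 to 14.99, array medians from 6.55 to 6.62, and the median SD between both arrays of a time point was 0.107 over probe sets whose highest time-point mean (Max) was above 7. The paper's methods and the deposited processing notes name different normalizations (RMA and GCRMA), so it is not known which gave the values. Replicate 1 of E16 stood apart in heart muscle genes, whose mean log2 level was 10.44 in it and 7.80 in replicate 2, with Myl2, the ventricular myosin light chain, at 12.63 and 8.84. The members differed little between these 2 arrays (median gap 0.12, largest 0.66 for Vwf). Epithelial genes, which check the labelled tissue, had a mean level of 12.20 and 12.13 in Adult and 9.37 and 9.10 at E12.

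Nearly the whole set of endothelial genes changed over lung development, and most of it rose. In the limma F test over the 7 time points, 39 of the 40 members changed at an adjusted p under 0.05, against 73.2% of all genes, and 34 did so with Max above 7 and a Range, the largest time-point mean less the smallest, above 1.2, against 26.7% of all genes. The exception was Prox1, as read from its brightest probe set. In Adult against E12, 34 members were higher, against 35.0% of all genes, and 1 was lower (Mmrn1), against 30.2%. Their median difference was 2.24, beside 0.08 over all genes. The 5 that passed in neither direction were Fli1, Aplnr, Gja5, Prox1 and Vegfb. All 35 calls held in each of the 14 fits that left out 1 array. The mean was highest in Adult for 26 members, at P10 for 6 and at E18 for 4, and lowest at E12 for 29. These last counts were not taken over all genes.

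**Figure D1:**
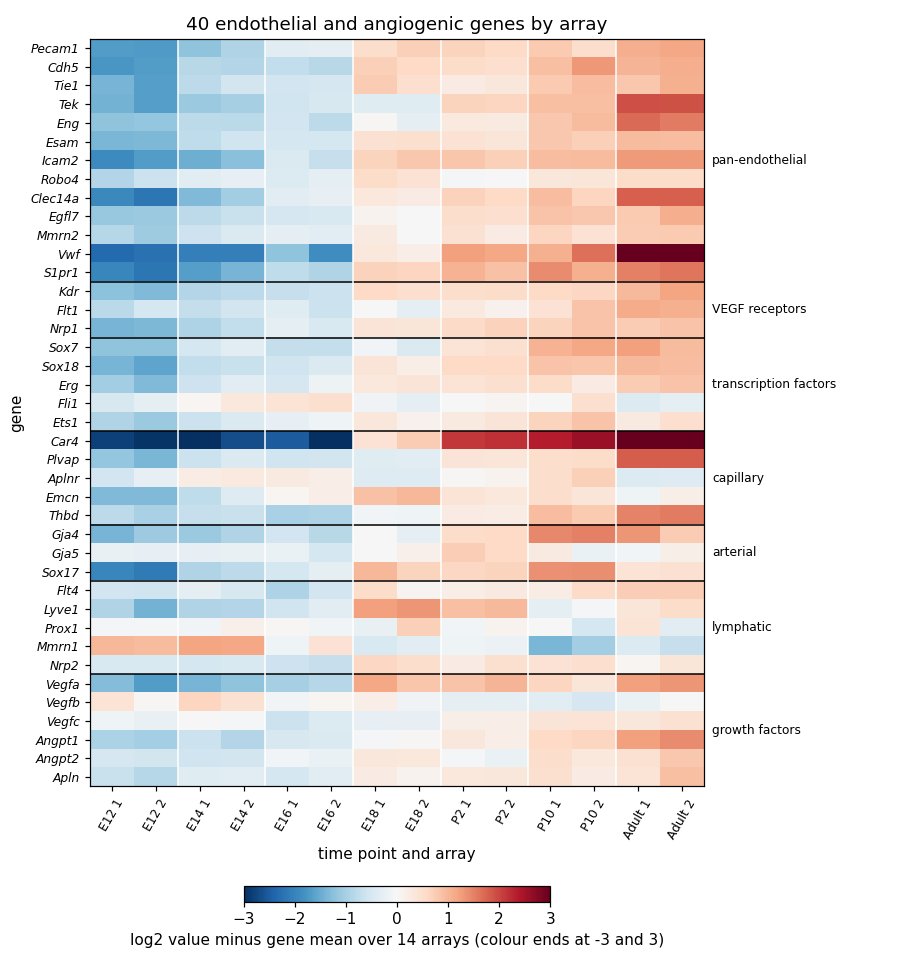
Heat map of the 40 members (rows, by group) on the 14 arrays (columns, 2 per time point), as log2 value minus the gene's mean over the arrays; red is above and blue below that mean, and colours end at -3 and 3. Most rows turn from blue to red between the E16 and E18 columns, whereas Mmrn1 runs the other way.

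The step with the most changes was E18 against E16, in which 32 members rose (24.8% of all genes did) and 3 fell (21.6% of all genes). Of the 6 steps, it also had the largest shares of all genes called in either direction. It was the largest step for 23 members, a count that was not taken over all genes. Of its 35 calls, 28 held whichever array was left out. Without replicate 1 of E16, the array with the heart muscle signal, 31 rose and 3 fell. At the earlier steps, 18 members rose and 0 fell in E14 against E12 (3.41% and 0.918% of all genes), and 9 rose and 3 fell in E16 against E14 (9.95% and 10.6%). At an unadjusted p under 0.05, 25 rose and 0 fell in E14 against E12, and the unmoderated one-way test gave 11 and 0. After birth, 12 rose and 3 fell in P2 against E18 (8.58% and 10.0%), 11 rose and 3 fell in P10 against P2 (4.82% and 4.37%), and 15 rose and 5 fell in Adult against P10 (16.8% and 14.9%). Several of these counts rest on single arrays. E14 against E12 gave 6 calls without E14 replicate 2 and 10 without E12 replicate 2. P2 against E18 gave 9 without E18 replicate 2 and 8 without either P2 array, and P10 against P2 gave 5 without P2 replicate 1 or P10 replicate 2 and 7 without P2 replicate 2. The calls that held in all 14 such fits numbered 6 of 18 in E14 against E12, 8 of 12 in E16 against E14, 6 of 15 in P2 against E18, 4 of 14 in P10 against P2 and 11 of 20 in Adult against P10.

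Set against E18 as a midpoint, 33 members were higher and 1 lower in E18 against E12 (29.5% and 27.3% of all genes), and 24 were higher and 4 lower in Adult against E18 (19.2% and 20.0%). By a stricter call, which also required a difference above 1.2 and a mean above 7 at the higher of the 2 time points compared, 31 members were higher and 1 lower in Adult against E12 (11.5% and 9.84% of all genes), 19 and 1 in E18 against E12 (8.55% and 6.56%), and 10 and 0 in Adult against E18 (2.94% and 2.00%). Of the single steps, E18 against E16 kept 10 higher and 0 lower by this rule (4.11% and 3.07%). The numbers were 0 and 0 in E14 against E12 (0.187% and 0.0275%), 0 and 0 in E16 against E14 (1.14% and 0.275%), 1 and 0 in P2 against E18 (0.539% and 0.775%), 0 and 0 in P10 against P2 (0.264% and 0.264%) and 2 and 0 in Adult against P10 (2.04% and 1.79%).

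**Figure D2:**
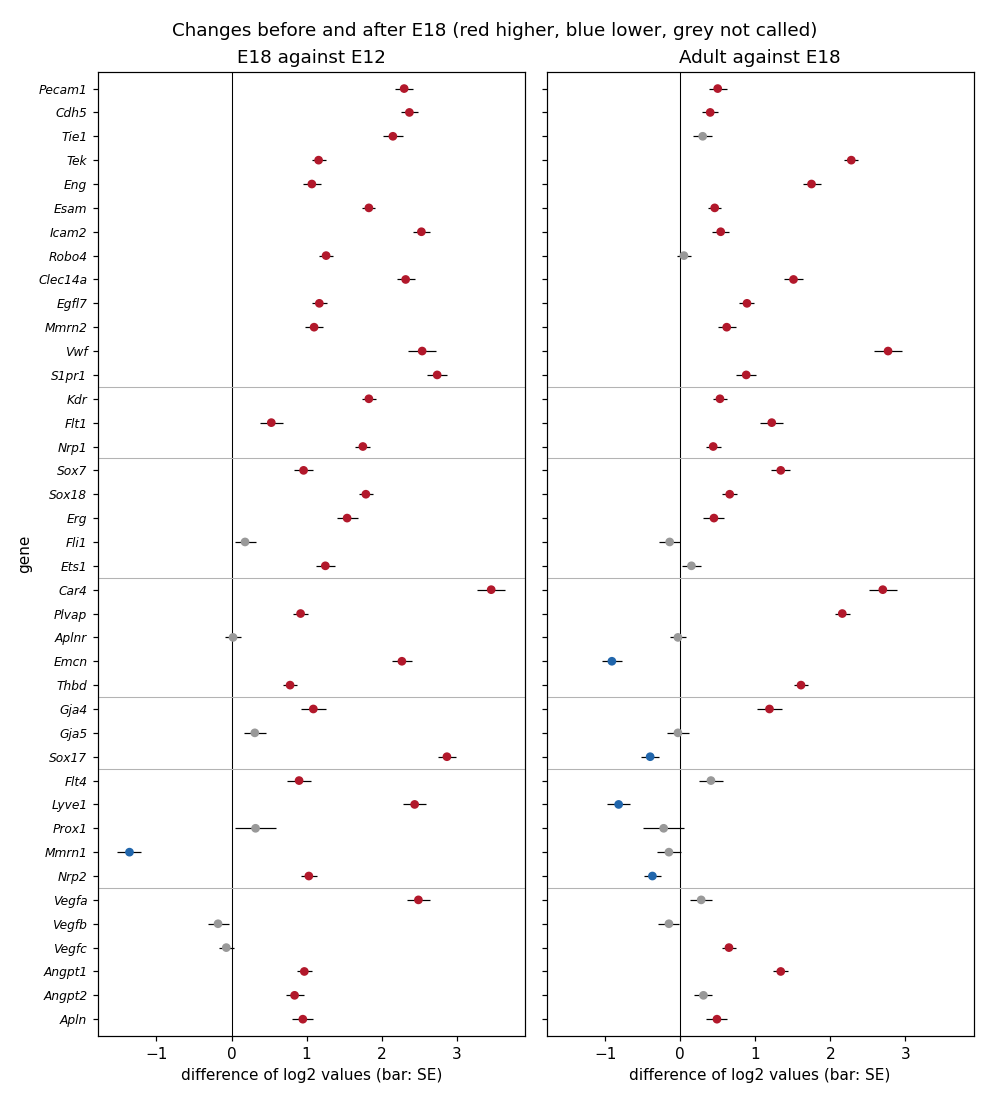
Differences of log2 means for the 40 members, E18 against E12 (left) and Adult against E18 (right), on 1 scale; points are estimates, bars are SE, and red, blue and grey mark higher, lower and not called. In E18 against E12, 33 members were higher and 1 lower, and in Adult against E18, 24 were higher and 4 lower.

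All 13 pan-endothelial genes were higher in Adult against E12, by 1.31 (Robo4) to 5.31 (Vwf), with a median of 2.80. Their mean over the list was 8.31 and 8.27 on the E12 arrays, 8.78 and 8.92 at E14, 9.28 and 9.21 at E16, 10.22 and 10.14 at E18, 10.42 and 10.36 at P2, 10.69 and 10.70 at P10 and 11.15 and 11.20 in Adult. Arrays of neighbouring time points did not overlap in this mean, and its largest step was 0.94 in E18 against E16. Pecam1, an adhesion molecule of endothelial junctions, read 8.90 and 8.88 at E12, 9.37 and 9.68 at E14, 10.22 and 10.30 at E16, 11.11 and 11.28 at E18, 11.24 and 11.16 at P2, 11.36 and 11.11 at P10 and 11.65 and 11.74 in Adult. Its level climbed through the embryonic arrays and held between 11.11 and 11.36 from E18 to P10, where the arrays overlapped. The rise of 0.93 in E18 against E16 (SE 0.12, adjusted p = 2.65e-05) and that of 2.80 in Adult against E12 (SE 0.12, adjusted p = 1.43e-10) both passed.

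Cdh5, the VE-cadherin of endothelial junctions, averaged 10.26 in Adult and 7.49 at E12, and rose most in E18 against E16 (1.43, SE 0.11, adjusted p = 3.1e-07). Icam2 and Esam, adhesion molecules of the endothelial surface, rose by 1.30 and 1.0 in the same step, and S1pr1, a receptor for sphingosine-1-phosphate that keeps endothelial barriers tight, by 1.51. Robo4, a guidance receptor of endothelium, rose by 0.85 in E18 against E16 and fell by 0.54 in P2 against E18 (SE 0.097, adjusted p = 0.00205), with 7.95 and 8.0 at P2 against 8.57 and 8.45 at E18. Eng, a co-receptor for TGF-beta and BMP ligands, spread its rise over the later steps, with 0.55 in E18 against E16 and 0.75 in Adult against P10. Clec14a, a C-type lectin of endothelium, rose at both early steps (0.86 in E14 against E12 and 0.90 in E16 against E14) and by 1.02 in Adult against P10. Egfl7 and Mmrn2, an endothelial matrix protein, were higher by 2.06 and 1.72 in Adult against E12.

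Tek, the angiopoietin receptor, and Tie1, the related receptor that acts beside it, are given side by side. Tek read 8.68 and 8.46 at E12, 8.99 and 9.11 at E14, 9.51 and 9.63 at E16, 9.73 and 9.74 at E18, 10.78 and 10.75 at P2, 11.0 and 11.0 at P10 and 12.03 and 12.00 in Adult. Its E18 arrays lay 0.16 above those of E16 (SE 0.094, adjusted p = 0.20), and it then rose by 1.03 in P2 against E18 (SE 0.094, adjusted p = 1.01e-05) and by 1.02 in Adult against P10 (SE 0.094, adjusted p = 3.17e-06). Tie1 read 8.15 and 7.89 at E12, 8.75 and 8.99 at E14, 8.97 and 9.03 at E16, 10.29 and 10.04 at E18, 9.79 and 9.87 at P2, 10.32 and 10.47 at P10 and 10.34 and 10.60 in Adult. It rose by 1.17 in E18 against E16 (SE 0.13, adjusted p = 9.18e-06), and in P2 against E18 its difference was -0.34 (adjusted p = 0.112). Whether the courses of both genes differ was not tested.

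Vwf, which encodes von Willebrand factor, had the largest rise of the group. It read 6.52 and 6.62 at E12, 6.81 and 6.81 at E14, 7.65 and 6.99 at E16, 9.17 and 9.06 at E18, 10.08 and 10.02 at P2, 9.92 and 10.51 at P10 and 11.91 and 11.86 in Adult. The Adult arrays lay 5.31 above those of E12 (SE 0.19, adjusted p = 3.43e-11), with steps of 1.80 in E18 against E16, 0.93 in P2 against E18 and 1.67 in Adult against P10, each of which passed. Platelets and megakaryocytes also make von Willebrand factor. Of 7 of their genes, 5 were higher in Adult against E12, with a median difference of 0.45 and a largest of 2.05. The 7 genes had a mean level of 7.49 and 7.36 in Adult and 6.88 and 6.88 at E12. In E18 against E16, 0 of the 7 were called. In P2 against E18, 4 were higher and 0 lower (median 0.54), and in Adult against P10, 1 was higher and 1 lower. Pf4, platelet factor 4, was 1 of the 2 not called in Adult against E12, at 9.09 and 8.95 in Adult and 9.12 and 9.21 at E12. It thus does not stand for the list, of which 5 of 7 were higher. The part of platelets in the course of Vwf was not tested.

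The 3 VEGF receptor genes were all higher in Adult against E12, by 2.35 for Kdr, 2.19 for Nrp1 and 1.76 for Flt1. Kdr, the main signalling receptor for VEGF-A, read 9.46 and 9.36 at E12, 9.80 and 9.90 at E14, 9.99 and 10.04 at E16, 11.28 and 11.20 at E18, 11.22 and 11.24 at P2, 11.28 and 11.30 at P10 and 11.65 and 11.88 in Adult. It stepped up between E16 and E18 by 1.23 (SE 0.096, adjusted p = 2.92e-07), lay between 11.20 and 11.30 on all 6 arrays from E18 to P10, and rose again by 0.48 in Adult against P10 (SE 0.096, adjusted p = 0.00208). Nrp1, the neuropilin that binds VEGF-A with Kdr, rose by 0.73 in E18 against E16 and had no called step after it. Its 4 probe sets gave 2.19, 2.37, 0.97 and 2.25 in Adult against E12. Flt1, which binds VEGF-A and can act as a sink for it, had a fragile call at E18. E18 lay 0.53 above E12 (adjusted p = 0.00883, and 0.10 without E12 replicate 1 or 0.0916 without E18 replicate 1), and Adult 1.22 above E18 (SE 0.15, adjusted p = 3.07e-05). Its 4 probe sets differed in size, with Adult above E12 by 1.76, 4.04, 1.33 and 2.12.

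Of the 6 growth factors, 5 were higher in Adult against E12, and Vegfb was not called. Vegfa, which drives the growth of blood vessels and is made by alveolar epithelium among other cells, read 9.31 and 8.93 at E12, 9.22 and 9.40 at E14, 9.62 and 9.76 at E16, 11.77 and 11.45 at E18, 11.47 and 11.63 at P2, 11.25 and 10.98 at P10 and 11.84 and 11.93 in Adult. The arrays fell into a low block up to E16 and a high block from E18, with a step of 1.92 (SE 0.15, adjusted p = 2.17e-07). A second probe set of Vegfa gave a smaller rise in Adult against E12, 1.73 beside 2.77. Vegfc, the ligand of Flt4 that drives lymphatic growth, stayed between 7.61 and 8.72 on all arrays. It fell by 0.52 in E16 against E14 (SE 0.097, adjusted p = 0.00257) and was 0.65 higher in Adult against E18 (SE 0.097, adjusted p = 0.000151). Vegfb, a ligand of Flt1, had its highest mean at E14 (8.35 and 8.17) and its lowest at P10 (7.38 and 7.20), and its difference of -0.32 in Adult against E12 missed the threshold (adjusted p = 0.0582). Vegfb was called lower without E12 replicate 2 (-0.51, adjusted p = 0.0119) and under 5 further settings (adjusted p of 0.0368 to 0.0471).

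Both angiopoietin genes were higher in Adult against E12, Angpt1 by 2.32 and Angpt2 by 1.16. A second probe set of Angpt1 gave 1.21. Angpt1, the ligand that activates Tek, rose by 0.44 in E18 against E16 (SE 0.10, adjusted p = 0.00374) and by 0.70 in Adult against P10 (SE 0.10, adjusted p = 0.000193). Angpt2, which can oppose Angpt1 at Tek, read 7.33 and 7.29 at E12, 7.23 and 7.29 at E14, 7.74 and 7.64 at E16, 8.16 and 8.14 at E18, 7.76 and 7.62 at P2, 8.35 and 8.14 at P10 and 8.29 and 8.64 in Adult. It rose by 0.46 in E18 against E16 (SE 0.12, adjusted p = 0.0056). Its fall of 0.46 at P2 (adjusted p = 0.0167) and its rise of 0.55 at P10 (adjusted p = 0.0117) each lost the call when 1 array was left out: the fall without E18 replicate 1 (adjusted p = 0.0891), E18 replicate 2 (0.0615) or P2 replicate 2 (0.14), and the rise without P2 replicate 2 (0.112) or P10 replicate 1 (0.0784). Apln, the ligand of the apelin receptor, was 1.44 higher in Adult against E12 (SE 0.14, adjusted p = 9.41e-07).

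**Figure D3:**
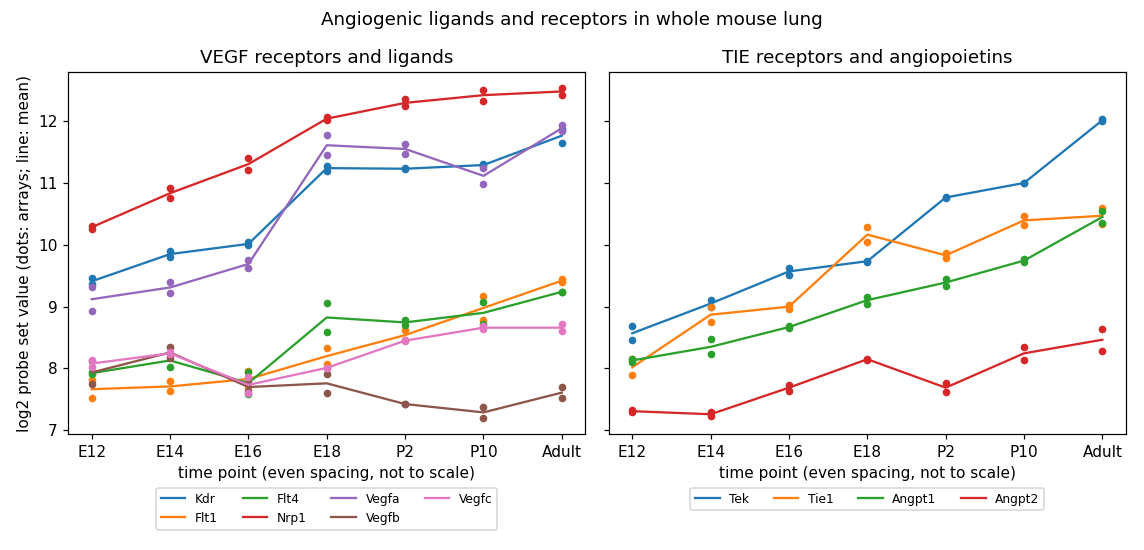
Log2 values of VEGF receptors and ligands (left) and of TIE receptors and angiopoietins (right) by time point in developmental order; dots are arrays and lines join the means of 2. Vegfa and Kdr step up together at E18, and Tek rises mainly after E18.

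The capillary genes went in different directions. Car4, a carbonic anhydrase on the surface of lung capillary endothelium, had the largest change of all 40 members and read 5.21 and 5.05 at E12, 4.82 and 5.35 at E14, 5.51 and 5.02 at E16, 8.43 and 8.75 at E18, 10.12 and 10.19 at P2, 10.36 and 10.60 at P10 and 11.19 and 11.39 in Adult. Its 6 arrays up to E16 lay between 4.82 and 5.51, near the low end of the arrays, and it rose by 3.33 in E18 against E16 (SE 0.19, adjusted p = 1.45e-08) and by 1.57 in P2 against E18 (SE 0.19, adjusted p = 9.67e-05). Adult lay 6.16 above E12 (SE 0.19, adjusted p = 7.44e-12), and 7.47 by its second probe set. The values do not show whether the E12 signal was above background, so the rises of Car4 measured against arrays up to E16 may understate the change and are no exact folds. Plvap, which forms the diaphragms of fenestrated and caveolar endothelium, read 9.49 and 9.27 at E12, 10.00 and 10.20 at E14, 10.04 and 10.09 at E16, 10.29 and 10.31 at E18, 11.04 and 11.0 at P2, 11.16 and 11.19 at P10 and 12.45 and 12.47 in Adult. It rose first in E14 against E12 (0.72, SE 0.098, adjusted p = 0.00132), had no called step up to E18, and rose again by 0.72 at P2 and by 1.29 in Adult against P10 (SE 0.098, adjusted p = 5.45e-07). Thbd, the anticoagulant receptor thrombomodulin, rose by 0.86 in E18 against E16, 0.61 in P10 against P2 and 0.67 in Adult against P10.

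Aplnr and Emcn peaked before adulthood. Aplnr, the apelin receptor, read 11.64 and 11.97 at E12, 12.43 and 12.49 at E14, 12.48 and 12.40 at E16, 11.83 and 11.83 at E18, 12.24 and 12.31 at P2, 12.73 and 12.93 at P10 and 11.80 and 11.81 in Adult. It fell by 0.62 in E18 against E16 (SE 0.11, adjusted p = 0.000537), had its highest mean at P10, and fell by 1.03 in Adult against P10 (SE 0.11, adjusted p = 1.4e-05), and the Adult and E12 arrays overlapped. Its second probe set gave -0.21 in Adult against E12 (adjusted p = 0.164). Its ligand Apln was not called in Adult against P10 (0.30, adjusted p = 0.161). Emcn, endomucin, a sialomucin of capillary and venous endothelium, read 9.35 and 9.35 at E12, 9.92 and 10.28 at E14, 10.73 and 10.88 at E16, 11.55 and 11.68 at E18, 11.08 and 11.0 at P2, 11.21 and 11.03 at P10 and 10.55 and 10.85 in Adult. Its mean was highest at E18, where it lay 2.27 above E12 (SE 0.13, adjusted p = 6.53e-09), and Adult lay 0.91 below E18 (SE 0.13, adjusted p = 0.000126).

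**Figure D4:**
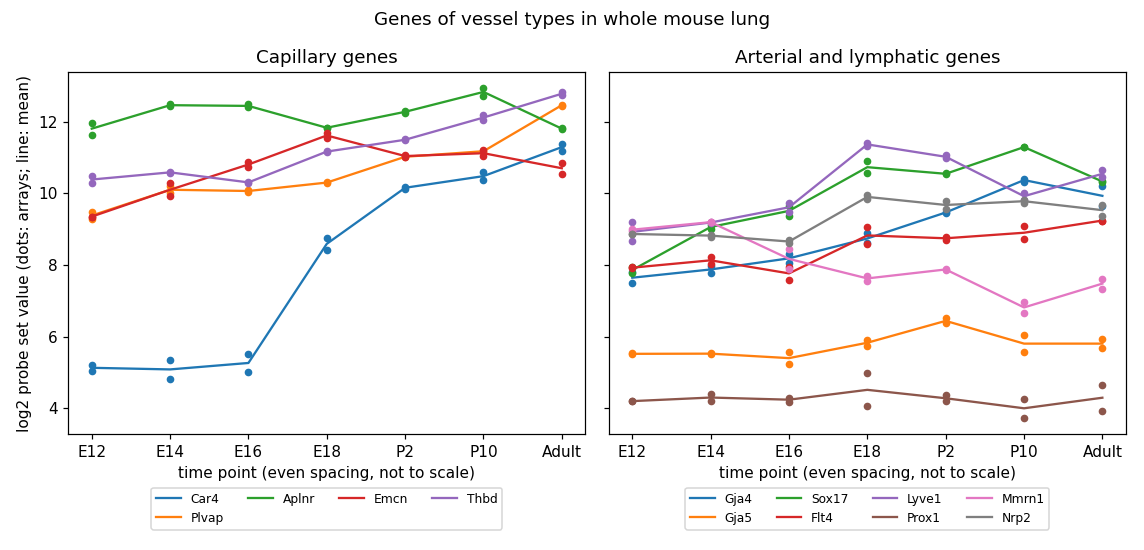
Log2 values of capillary genes (left) and of arterial and lymphatic genes (right) by time point in developmental order; dots are arrays and lines join the means of 2. Car4 climbs from E18, Aplnr dips at E18 and falls after P10, and Mmrn1 declines while Lyve1 peaks at E18.

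Of the 3 arterial genes, Sox17 and Gja4 were higher in Adult against E12 and Gja5 was not called. Sox17, a transcription factor of arterial endothelium, read 7.94 and 7.78 at E12, 9.0 and 9.12 at E14, 9.38 and 9.64 at E16, 10.90 and 10.56 at E18, 10.53 and 10.56 at P2, 11.28 and 11.30 at P10 and 10.31 and 10.35 in Adult. It rose by 1.2 in E14 against E12, the largest rise of any member at that step (SE 0.12, adjusted p = 0.00019), by 1.22 in E18 against E16 and by 0.74 in P10 against P2, and fell by 0.96 in Adult against P10 (SE 0.12, adjusted p = 4.86e-05). A second probe set of Sox17 gave 1.46 in Adult against E12, beside 2.47. Gja4, the connexin of arterial gap junctions, reached its highest mean at P10 as well (10.33 and 10.41), with 10.20 and 9.66 in Adult. Its rise of 0.91 in P10 against P2 (adjusted p = 0.00596) had an adjusted p of 0.0603 without P2 replicate 1 and 0.0527 without P10 replicate 2. Gja5, another arterial connexin, stayed below 7 on all arrays, from 5.23 to 6.51, and its highest mean was at P2.

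Of the 5 lymphatic genes, 3 were higher in Adult against E12 and Mmrn1 was lower. Lyve1, a hyaluronan receptor of lymphatic endothelium that some macrophages also carry, read 9.19 and 8.66 at E12, 9.17 and 9.20 at E14, 9.48 and 9.74 at E16, 11.32 and 11.41 at E18, 10.98 and 11.06 at P2, 9.82 and 10.02 at P10 and 10.45 and 10.64 in Adult. It rose by 1.75 in E18 against E16 (SE 0.15, adjusted p = 7.36e-07), fell by 1.10 in P10 against P2 (SE 0.15, adjusted p = 0.000739), and lay 0.82 lower in Adult against E18 (SE 0.15, adjusted p = 0.000816). Macrophage genes had a mean level of 6.47 and 6.46 at E16, 7.15 and 7.31 at E18, 7.64 and 7.58 at P2, 7.74 and 7.74 at P10 and 8.63 and 8.50 in Adult. In E18 against E16, where Lyve1 rose most, 3 of 9 macrophage genes were higher and 0 lower. Their median difference was 0.16 and the largest 4.9, so the mean level does not stand for most of them. The part of macrophages in the course of Lyve1 was not tested. Mmrn1, multimerin 1, a protein of lymphatic endothelium and of platelets, read 9.01 and 8.96 at E12, 9.20 and 9.19 at E14, 7.89 and 8.45 at E16, 7.56 and 7.69 at E18, 7.90 and 7.85 at P2, 6.65 and 6.98 at P10 and 7.62 and 7.34 in Adult. In the main fit it was the only member lower in Adult against E12, with Vegfb as a second under some other settings. Mmrn1 fell by 1.5 (SE 0.16, adjusted p = 1.72e-06), with falls of 1.02 in E16 against E14 (SE 0.16, adjusted p = 0.000757) and 1.05 in P10 against P2 (SE 0.16, adjusted p = 0.00151). Its second probe set, with a mean of 3.04 near the low end of the arrays, gave -0.17 in Adult against E12 (adjusted p = 0.152). Of the 7 platelet and megakaryocyte genes, 5 were higher and 0 lower in Adult against E12. In E16 against E14, 0 of them were called, and in P10 against P2, 3 were lower and 0 higher (median -0.47). The part of platelets in the course of Mmrn1 was not tested.

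Flt4, the receptor for VEGF-C, rose by 1.06 in E18 against E16 (SE 0.16, adjusted p = 0.000125). Nrp2, its co-receptor, rose by 1.24 in that step (SE 0.11, adjusted p = 1.03e-06). Prox1, the transcription factor that sets lymphatic identity, lay between 3.73 and 4.98 on all 14 arrays, and its 3 probe sets had means of 4.26, 3.76 and 3.59, near the low end of the arrays. The brightest of them showed no called change (0.10 in Adult against E12, SE 0.27, adjusted p = 0.786), while the second was lower, at 3.47 in Adult against 4.05 at E12 (difference -0.57, SE 0.14, adjusted p = 0.00226). The third was at 3.49 in Adult against 3.76 at E12 (difference -0.27, SE 0.12, adjusted p = 0.0746).

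Of the 5 transcription factors, 4 were higher in Adult against E12, and Fli1 was not called by its brighter probe set (0.03, adjusted p = 0.869) but was higher by its second (0.28, SE 0.11, adjusted p = 0.0404). Sox18 rose by 0.78 in E14 against E12 (SE 0.098, adjusted p = 0.000774) and by 0.81 in E18 against E16, and stood at 11.01 and 10.97 in Adult against 8.63 and 8.46 at E12. Sox7, a close relative, was 2.30 higher in Adult against E12, with a rise of 0.69 in P2 against E18 (SE 0.13, adjusted p = 0.00245). Erg, an ETS factor that maintains endothelial identity, was 1.99 higher in Adult against E12, and Ets1, another, 1.40 higher. Fli1, an ETS factor of endothelial and blood cells, read 8.83 and 9.02 at E12, 9.37 and 9.61 at E14, 9.70 and 9.78 at E16, 9.19 and 9.01 at E18, 9.30 and 9.38 at P2, 9.32 and 9.79 at P10 and 8.90 and 9.01 in Adult. It fell by 0.64 in E18 against E16 (SE 0.14, adjusted p = 0.00238), the step in which Erg rose by 0.68 (SE 0.14, adjusted p = 0.00177), and its Adult and E12 arrays overlapped (difference 0.03, adjusted p = 0.869).

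To ask how far each other member moved beyond the pan-endothelial list, the 27 members outside it were tested again after the mean of the 13 genes was subtracted on each array. In Adult against E12 that mean rose by 2.89. Relative to it, Car4 was higher (3.28, SE 0.17, adjusted p = 1.03e-12), 24 members were lower, and Plvap and Vegfa were not called (0.19, adjusted p = 0.0943, and -0.11, adjusted p = 0.433). Flt1, 1 of the 24, was read from a probe set that rose by 1.76. Its other probe sets rose by 4.04, 1.33 and 2.12, the first of these by more than the reference. With quantile normalization, an intensity trend, the one-way test or the mean of all probe sets, 2 members were higher in place of 1. Over all genes 2.33% were higher and 96.2% lower on this scale, which is set by a rising reference. In E18 against E12, with a reference rise of 1.89, the 5 members above it were Car4 (1.57), Sox17 (0.98), Vegfa (0.61), Lyve1 (0.55) and Emcn (0.38), and 19 were below it, where 3.52% and 93.6% of all genes were. With the mean of all probe sets, 4 members were above it. With only probe sets whose names lack the endings _x, _s and _a, 3 of 24 were. Kdr, Nrp1 and Sox18 differed from the reference by less than the test could call (-0.06, -0.14 and -0.10). In Adult against E18, 5 of the 27 were higher relative to it (Car4, Plvap, Thbd, Angpt1 and Sox7) and 20 were lower, where 2.89% and 92.0% of all genes were. Among the 20, Emcn, Lyve1 and Sox17, which had been above it in E18 against E12, were at -1.91, -1.82 and -1.40 (SE 0.13, 0.15 and 0.13). The group medians relative to the reference in Adult against E12 were -0.69 for VEGF receptors, -0.90 for transcription factors, -0.49 for capillary, -0.60 for arterial and -2.22 for lymphatic genes, and -1.59 for growth factors. Prox1 (-2.79, lymphatic) and Gja5 (-2.6, arterial) had a Max at or below 7. Their own differences were 0.10 and 0.28, so these values mainly give the reference rise with its sign turned. With only genes whose highest mean was above 7, 1 member was higher and 22 lower of 25. The 13 pan-endothelial genes themselves spread from -1.57 (Robo4) to 2.43 (Vwf) around their mean, with 4 called higher and 5 lower. Only the medians of lymphatic genes and, narrowly, of growth factors lay outside that spread. A call below the reference thus does not set a member apart from pan-endothelial genes.

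**Figure D5:**
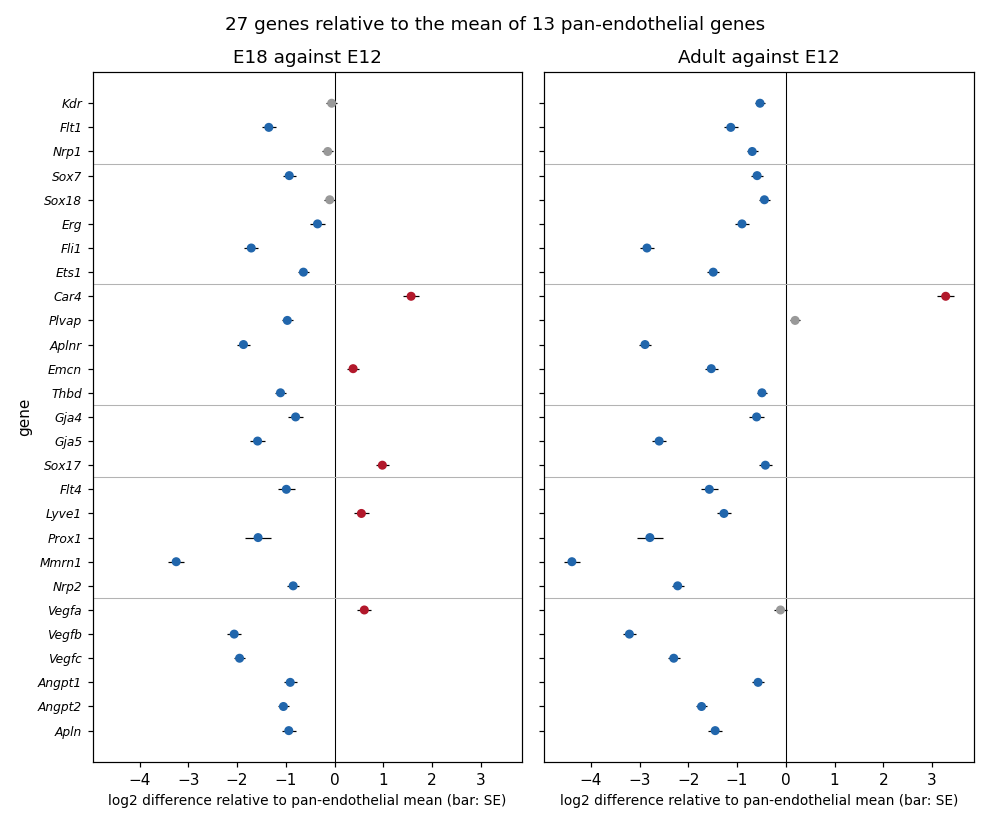
Differences of the 27 members outside the pan-endothelial list after the mean of the 13 pan-endothelial genes was subtracted on each array, E18 against E12 (left) and Adult against E12 (right), on 1 scale; bars are SE, and red, blue and grey mark higher, lower and not called. Car4 lies above 0 past the test in Adult against E12, at 3.28.

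A second list of 40 endothelial genes that are no members, of which 38 had a probe set of their own, was read on the same arrays. How far other lung cells make these genes was not tested. In Adult against E12, 33 were higher (35.0% of all genes were), 1 was lower (30.2%) and 4 were not called, with a median of 2.00. The 3 largest rises were those of Tmem100, a target of BMP signalling in endothelium, at 12.36 and 12.33 in Adult against 7.31 and 7.17 at E12 (difference 5.11, SE 0.14, adjusted p = 3.81e-12), Calcrl, the receptor for adrenomedullin (4.83, SE 0.15, adjusted p = 6.94e-12), and Gpihbp1, which holds lipoprotein lipase on capillaries (4.79, SE 0.13, adjusted p = 2.79e-12). Tmem100 made most of its rise in P2 against E18 (2.84, SE 0.14, adjusted p = 6.14e-08). The fall was that of Pgf, placental growth factor, a ligand of Flt1 (fell by 0.72, SE 0.14, adjusted p = 0.000403).

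Genes of other cells moved over the same arrays. In Adult against E12, 35.0% of all genes were higher and 30.2% lower. Of leukocyte genes, 11 of 11 were higher (median 2.53, mean level 9.55 and 9.69 in Adult and 6.22 and 6.26 at E12). So were 9 of 9 macrophage genes (median 1.19) and 8 of 10 pericyte genes (median 1.02, 0 lower). Of 10 epithelial genes, 8 were higher and 1 lower. All 9 genes of dividing cells were lower (median -4.79), and of 8 fibroblast genes 3 were higher and 2 lower. The mean level of dividing-cell genes was 7.96 and 8.17 at E18, against 10.76 and 10.89 at E16, the step in which 32 members rose. Pericyte genes, whose cells wrap capillaries, had a mean level of 9.27 and 9.15 at E18, 8.83 and 8.81 at P2, 9.04 and 9.18 at P10 and 8.70 and 8.70 in Adult, with overlap between E18 and P10. The part of these cell types in the changes of the members was not tested.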

How the data were processed

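RNA of pooled whole lungs had been measured on 14 arrays. The authors deposited log2 values, which were used unchanged; for their making, the methods give the Robust Multichip Average in Partek 6.4, while the submitters' processing notes list GCRMA beside that program. After 64 control probe sets were left out, 45037 remained: 34945 with 1 gene symbol, 932 with several and 9160 with none, and only the first kind could stand for a gene. In R 4.3.3 with limma 3.58.1, a linear model gave each of the 45037 its mean per time point, variances were moderated (prior df 6.04 beside 7 residual df), and p-values were adjusted by Benjamini-Hochberg across the whole table. Calls are at an adjusted p under 0.05; the stricter call also asks for a difference over 1.2 with the larger of both means over 7. SE is that of the fit. The number of arrays limits the precision. For the relative test, the mean of the 13 pan-endothelial genes was subtracted on each array before the same fit. The fit was also run on simulated arrays, with independent normal noise around the mean of each of the 45037 probe sets. Known changes were added in Adult to 200 probe sets with a mean above 7. In Adult against E12, limma called 92 of 100 with a log2 change of 1 and 99 of 100 with a change of 2, and 7 of 44837 with none. No change was added to dimmer probe sets, such as those of Gja5 and Prox1, and far fewer probe sets changed than in the real data. The rates may therefore not carry over. All 40 members are named in the text; of the second endothelial list, the 3 largest rises and falls past the test are named, and other lists appear as counts with examples. The members and the lists were chosen with earlier results of these data known. Sequences and promoter windows came from RefSeq tables of GRCm38.p6, read with Python 3.11.15 and pandas 2.3.3; 0 of the 40 symbols needed an update. Alternatives were 2 other normalizations, a filter on low values, an intensity trend, the methods' one-way test, other choices of probe set, the stricter call, a replicate block, each array left out, and, chosen after values were seen, a reference of 6 pan-endothelial genes.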

Additional observations from a re-analysis of the deposited data

How the results depend on the processing

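Of the 40 members, 39 changed across the time points in the main fit and in each fit that left out 1 array, and 35 passed in Adult against E12 (35 to 36 with 1 array left out). Calls at single steps depended more on the rule. With the stricter call, which is built to pass fewer genes, 0 members passed in E14 against E12, 0 in E16 against E14, 10 in E18 against E16 (35 without it), 1 in P2 against E18, 0 in P10 against P2, 2 in Adult against P10 (20), 20 in E18 against E12 (34) and 10 in Adult against E18 (28). The one-way test without moderation gave 11 in E14 against E12 (18 in the main fit) and 9 in P2 against E18 (15); the cause was not tested. With 1 array left out, counts ranged from 6 to 18 in E14 against E12, 9 to 14 in E16 against E14, 29 to 36 in E18 against E16, 8 to 16 in P2 against E18, 5 to 15 in P10 against P2, 16 to 21 in Adult against P10, 33 to 34 in E18 against E12, 24 to 30 in Adult against E18, and relative to the pan-endothelial mean 24 to 26 in Adult against E12 and 23 to 24 in E18 against E12. The single values that changed sign were not called under the setting named. In Adult against E12, Fli1 was -0.01 with array medians centred, -0.06 without E12 replicate 1 and -0.02 without Adult replicate 2. Aplnr was 0.10 with quantile normalization, 0.16 without E12 replicate 2 and 0.00 without Adult replicate 1, with a range of -0.17 to 0.16 over single arrays left out. Prox1 was -0.25 as the mean of its probe sets and -0.27 without Adult replicate 1 (range -0.27 to 0.46), and -0.07 in Adult against P10 without Adult replicate 1 (range -0.07 to 0.66). Vegfb, not called in Adult against E12 in the main fit, was called lower under 6 settings: array medians centred, only genes with a highest mean above 7, the mean of all probe sets, and without E12 replicate 2, E18 replicate 1 or E18 replicate 2. With 6 pan-endothelial genes as the reference, chosen after values were seen, 2 members were higher and 19 lower in Adult against E12, and 5 and 18 in E18 against E12. Arrays of the same replicate number did not deviate together: the correlation of their deviations passed 0.1 in 2 of 21 pairs of time points (lowest -0.27, median -0.032, highest 0.12), so the numbers were not taken as a pairing. With the replicate number as a block, 17 members passed in Adult against P10 (20 without it), 35 in Adult against E12 and 18 in E14 against E12, and the other counts of the report were unchanged by it. Max stayed at or below 7 for Gja5 and Prox1, whose signal over background limits what the arrays can show.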
